A study of Homo sapiens with 10 samples.

Results

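The 10 genes described here are LGR5, ASCL2, SMOC2, MYB, SOX9, RNF43, ZNRF3, AXIN2, NKD1 and DKK1. They were chosen by name as Wnt targets and intestinal stem genes, with earlier results of these data known. All 10 have a row among the 60651 genes of the deposited count table, and all 10 passed the filter on low counts that left 22495 genes for testing. RNA of cultured human cells was sequenced as 10 libraries, 2 for each of 5 groups, and the series calls the 2 libraries of a condition biological replicates. HT29, an established colorectal cancer cell line, received 10 µM VXN or the solvent DMSO. The line t-hESC, which the labels describe as pluripotent stem cells that were transformed, received 10 µM VXN, 1 µM BIX or DMSO. The treatment field gives 48 hours and names DMSO for every sample, so compound and dose follow the sample titles. No label says what VXN stands for. Under the name BIX, inhibitors of the histone methyltransferases G9a and GLP are in use, enzymes that place H3K9me2, and the series title gives the pharmacological modulation of that mark as its subject. Nothing in the labels says whether the cultures are of 1 clone or several, and p-values here measure the spread between these libraries only.

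Wnt ligands bind Frizzled receptors and the co-receptors LRP5 and LRP6 and so spare β-catenin from the destruction complex, in which it would be marked for breakdown. Spared β-catenin enters the nucleus and, with TCF and LEF factors, switches on target genes, several of which damp the pathway again. RNF43 and ZNRF3 are membrane ubiquitin ligases that remove Frizzled from the surface, AXIN2 is a scaffold of the destruction complex, NKD1 binds Dishevelled and restrains it, and DKK1 is a secreted protein that blocks LRP5 and LRP6. In the intestinal crypt, Wnt signals maintain the stem cells. LGR5, a receptor for R-spondins, marks those cells, ASCL2 is a transcription factor of their programme, and SMOC2 is a secreted matrix protein enriched in them. MYB and SOX9 are transcription factors of the crypt's dividing cells. HT29 cells carry truncated APC, a scaffold of the destruction complex, as do many colorectal cancers.

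Total gene counts ran from 13137026 to 24492838 per library. Levels are given as CPM, counts scaled to library size with TMM factors, which are not corrected for transcript length, so a gene is compared with itself across groups and not with another gene. Where no read was seen, 3 counts are the upper limit, which is 0.122 to 0.228 CPM over these libraries. The line labels were checked with marker genes. The summed level of 7 pluripotency markers was 11.7 to 14.9 CPM in HT29 libraries and 4332 to 5041 CPM in t-hESC libraries. The summed level of 10 colorectal epithelium markers was 8116 to 10690 CPM in HT29 and 736 to 856 CPM in t-hESC. Of the 10, the intestinal identity genes CDX1, CDX2 and CDH17 were low in HT29 too, with group means of 0.12 to 0.34, 1.45 to 1.67 and 0.27 to 0.48 CPM. Differences were tested with edgeR's quasi-likelihood F test, and a gene is called when its Benjamini-Hochberg adjusted p over the 22495 genes is under 0.05. Every adjusted p below is of that kind unless another tool is named.

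Under DMSO, HT29 cells held far more RNA of most of the 10 genes than t-hESC cells did. DKK1, RNF43, LGR5, MYB, SOX9, ASCL2, ZNRF3 and AXIN2 were higher in HT29, and NKD1 and SMOC2 were lower. All 10 genes were called, 8 higher and 2 lower, where 84.4% of all tested genes were called, 38.9% higher and 45.6% lower, so a call as such says little here. The median log2 difference of all genes was -0.12, and upper-quartile scaling moved that median by -0.11 without changing a call among the 10. The DMSO libraries used here also serve as controls of the VXN and BIX comparisons below.

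DKK1 was at 147 and 143 CPM in the HT29 DMSO libraries, against 0.60 and 0.85 CPM in the t-hESC DMSO libraries. RNF43 was at 170 and 171 CPM in HT29, against 0.71 and 1.46 CPM in t-hESC. The lines lay 196-fold apart for DKK1 and 152-fold apart for RNF43, and the log2 differences were 7.61 ± 0.10 (SE; adjusted p = 5.73e-60) for DKK1 and 7.25 ± 0.091 (adjusted p = 9.57e-62) for RNF43. LGR5 reached 25.1 and 24.4 CPM in HT29 and 1.26 and 1.04 CPM in t-hESC, a log2 difference of 4.43 ± 0.15 (adjusted p = 2.89e-37). MYB was at 71.3 and 68.1 CPM in HT29, against 4.78 and 3.53 CPM in t-hESC. SOX9 was at 179 and 181 CPM in HT29, against 14.5 and 15.1 CPM in t-hESC. The log2 differences for MYB and SOX9 were 4.08 ± 0.089 and 3.60 ± 0.054.

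The other 5 genes split between the lines. ASCL2 was at 3.25 and 2.64 CPM in HT29, against 0.82 and 0.56 CPM in t-hESC. ZNRF3 was at 70.5 and 71.2 CPM in HT29, against 26.0 and 26.3 CPM in t-hESC, and AXIN2 at 58.4 and 55.1 CPM, against 25.6 and 24.3 CPM. All 3 were higher in both HT29 libraries, by 2.10 ± 0.27, 1.43 ± 0.056 and 1.19 ± 0.058 on the log2 scale. NKD1 went the other way, with 1.15 and 1.58 CPM in HT29 and 10.9 and 10.6 CPM in t-hESC, and its log2 difference was -2.97 ± 0.16 (adjusted p = 8.13e-26). SMOC2 had 2 reads in the 2 HT29 DMSO libraries together, all in replicate 1, and 27 reads in the 2 t-hESC DMSO libraries. The ratio of its levels was 0.0612, with a 95% counting interval of 0.00706 to 0.244, an interval that covers counting error only. The fitted log2 difference of -3.83 became -6.70 without HT29 DMSO replicate 1 and -2.96 without HT29 DMSO replicate 2.

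In HT29, VXN was followed by a near loss of LGR5, DKK1 and MYB RNA, while RNF43, AXIN2 and NKD1 rose. SOX9 fell by about a factor of 1.54, ZNRF3 by far less, SMOC2 rose from traces, and ASCL2 did not pass the test. Of the 10 genes 9 were called, 4 higher and 5 lower, against 60.0% of all tested genes, 33.0% higher and 26.9% lower. A called fall of 8-fold or more was seen for 0.556% of all tested genes, and LGR5, DKK1 and MYB were among them. This share describes the size of the 3 falls and tests nothing. The cut was set for this comparison and for falls only, and the 10 genes were chosen with earlier results of these data known. No share was computed for rises such as that of SMOC2. In bulk RNA a fall of 8-fold or more cannot be told apart from a loss of the cells that hold the RNA.

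**Figure D1:**
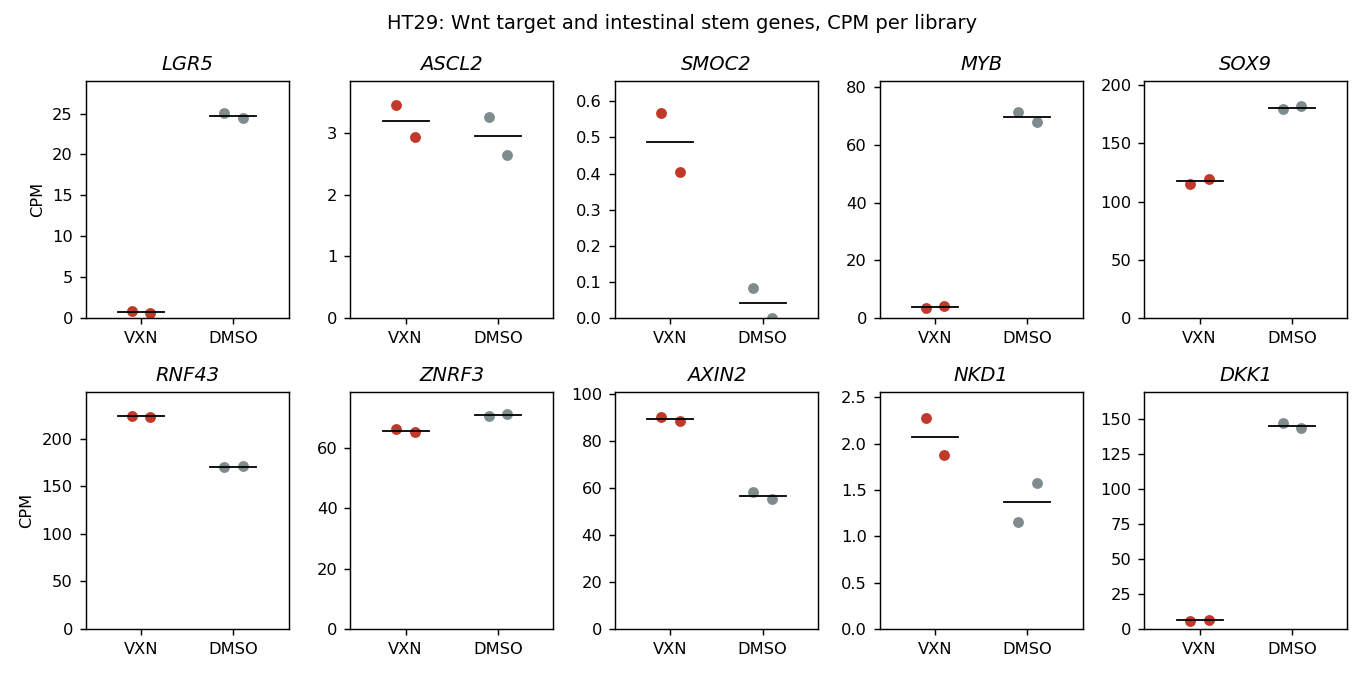
Level of each of the 10 genes in CPM (vertical axis, from 0, own scale per gene) in the 2 VXN and the 2 DMSO libraries of HT29; points are libraries and bars the mean of 2. LGR5, MYB and DKK1 lie near 0 under VXN, RNF43 and AXIN2 lie above their DMSO libraries, and the ASCL2 libraries overlap.

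Among the stem genes, LGR5 was at 0.87 and 0.66 CPM in the VXN libraries of HT29, against 25.1 and 24.4 CPM in the DMSO libraries. These are 33 reads in the 2 VXN libraries and 1182 in the 2 DMSO libraries. The groups lay far apart, and both VXN libraries were below every t-hESC DMSO library. LGR5 was 31.7-fold lower under VXN (log2 fold change -4.99 ± 0.16, SE; adjusted p = 3.92e-38), which left 3.09% of its DMSO level. From the lowest, it was number 20 of the 22495 log2 fold changes.

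MYB was at 3.45 and 4.10 CPM under VXN, against 71.3 and 68.1 CPM under DMSO. The VXN libraries held 5.42% of the DMSO level, with no overlap. The fall was 18.5-fold (log2 fold change -4.21 ± 0.089; adjusted p = 4.23e-48), number 49 from the lowest. SOX9 stayed abundant, at 115 and 120 CPM under VXN, against 179 and 181 CPM under DMSO. Its groups did not overlap either, and it kept 65.1% of its level (log2 fold change -0.62 ± 0.037; adjusted p = 1.47e-23). ASCL2 was at 3.45 and 2.94 CPM under VXN and at 3.25 and 2.64 CPM under DMSO. Its libraries overlapped, and the log2 fold change of 0.12 ± 0.19 had an adjusted p of 0.624. The stem genes did not move together, and ranged from a near loss over no called change to a rise.

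SMOC2 was the one stem gene that rose in HT29, and it did so from almost nothing. It had 0.57 and 0.41 CPM in the VXN libraries, against 0.082 and 0 CPM in the DMSO libraries, which is 21 reads against 2. The groups did not overlap, and the level ratio was 11.8 with a 95% counting interval of 2.87 to 103. The edgeR fit gave a 10.3-fold rise (adjusted p = 0.00019). The fitted log2 fold change of 3.37 became 6.23 without HT29 DMSO replicate 1, the only DMSO library with reads, and 2.49 without HT29 DMSO replicate 2. The VXN level of SMOC2 in HT29 equalled 72.1% of its t-hESC DMSO level. Some genes typical of t-hESC were also called higher in the HT29 VXN libraries at very low levels: LIN28A averaged 0.605 CPM under VXN and 0.0206 CPM under DMSO, and DPPA4 0.681 CPM and 0.105 CPM. Of the 7 pluripotency markers 3 were called higher and 1 lower, where 33.0% of all tested genes were called higher and 26.9% lower. Their summed level was 12.4 to 14.9 CPM under VXN and 11.7 to 13.5 CPM under DMSO. TDGF1, the third marker called higher, averaged 5.63 CPM under VXN and 2.14 CPM under DMSO. In HT29 VXN libraries the 7 markers stood at 0.0576 to 2.07% of their t-hESC DMSO levels, with LIN28A the lowest and TDGF1 the highest. The 5 fibroblast or feeder markers summed to 6.94 to 9.09 CPM under VXN and 3.29 to 4.24 CPM under DMSO, with 3 of 4 tested higher. The part of these traces in the SMOC2 rise was not tested.

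The 5 feedback inhibitors split. DKK1, which acts outside the cell on LRP5 and LRP6, was at 5.85 and 6.68 CPM under VXN, against 147 and 143 CPM under DMSO. No other of the 5 came near that change, and 4.32% of the DKK1 level was left (log2 fold change -4.54 ± 0.068, 23.2-fold lower; adjusted p = 2.88e-56). DKK1 was number 33 from the lowest of all genes.

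RNF43 was at 224 and 223 CPM in the VXN libraries, against 170 and 171 CPM in the DMSO libraries. The replicates nearly coincided and the groups were clearly apart, for a 1.31-fold rise (log2 fold change 0.39 ± 0.036; adjusted p = 3.27e-15). AXIN2, often read as a marker of Wnt activity, was at 90.0 and 88.4 CPM under VXN, against 58.4 and 55.1 CPM under DMSO. Both VXN libraries exceeded both DMSO libraries, a 1.57-fold rise (log2 fold change 0.65 ± 0.046; adjusted p = 5.77e-20). ZNRF3, the close relative of RNF43, was at 66.2 and 65.2 CPM under VXN, against 70.5 and 71.2 CPM under DMSO. Its groups did not overlap, but the fall was small (log2 fold change -0.11 ± 0.047; adjusted p = 0.0403). Without any 1 of the 4 HT29 libraries the adjusted p of ZNRF3 was 0.0729 to 0.153, and DESeq2 gave 0.124. NKD1 was low, at 2.27 and 1.87 CPM under VXN and 1.15 and 1.58 CPM under DMSO. It rose 1.53-fold (log2 fold change 0.61 ± 0.24; adjusted p = 0.021), and the call was lost without HT29 DMSO replicate 1 (log2 fold change 0.40, adjusted p = 0.237), without HT29 VXN replicate 1 (0.45, adjusted p = 0.219) and in DESeq2 (adjusted p = 0.106). So 2 genes that share the role of removing Frizzled, RNF43 and ZNRF3, were called in opposite directions, the second of them by a margin that did not hold in every fit.

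**Figure D2:**
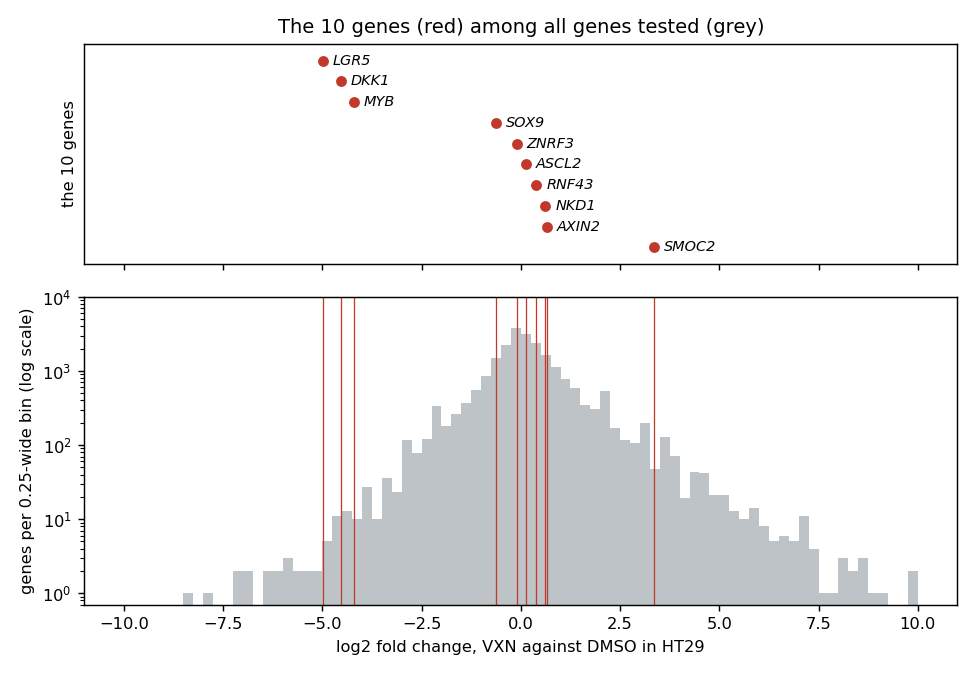
Upper panel: log2 fold change of the 10 genes for VXN against DMSO in HT29 (horizontal axis), in ascending order; lower panel: number of tested genes per bin (log scale) with the same 10 values as red lines. LGR5, DKK1 and MYB lie in the far lower tail at -4.99, -4.54 and -4.21, SMOC2 lies at 3.37, and the other 6 lie within the bulk of the genes.

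Promoter sequence was at hand for 4 of the 10 genes, as windows of 250 bases before to 50 bases after an annotated start (RefSeq, GRCh38.p14). LGR5, ASCL2, SOX9, ZNRF3, AXIN2 and NKD1 are named only. The windows of DKK1 and MYB, which fell together in HT29, and of RNF43, which rose, are shown because their changes were large or opposed. The letters CTTTGAA or CTTTGAT of TCF and LEF factors, TGACTCA of AP-1 and TATAAA of the TATA box were searched on both strands, and matches stand in capitals. The DKK1 window lies at chr10:52314031-52314330 on the plus strand, that of MYB at chr6:135181058-135181357 on the plus strand. RNF43 lies on the minus strand, and its windows are chr17:58417485-58417784 for the first start and chr17:58402672-58402971 for the second. Each sequence runs 5′ to 3′ along its gene.
DKK1: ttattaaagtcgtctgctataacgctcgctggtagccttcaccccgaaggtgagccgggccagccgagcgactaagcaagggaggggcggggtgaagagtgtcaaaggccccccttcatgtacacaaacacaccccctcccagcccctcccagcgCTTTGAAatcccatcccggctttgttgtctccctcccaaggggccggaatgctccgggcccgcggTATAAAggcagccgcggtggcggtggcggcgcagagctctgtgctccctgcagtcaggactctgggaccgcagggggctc
MYB: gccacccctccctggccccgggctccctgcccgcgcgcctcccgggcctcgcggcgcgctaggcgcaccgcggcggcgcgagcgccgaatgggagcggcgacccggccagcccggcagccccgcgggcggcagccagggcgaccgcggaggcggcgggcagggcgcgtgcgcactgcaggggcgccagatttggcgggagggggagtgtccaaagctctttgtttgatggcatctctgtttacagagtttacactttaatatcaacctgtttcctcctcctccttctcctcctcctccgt
RNF43 first start: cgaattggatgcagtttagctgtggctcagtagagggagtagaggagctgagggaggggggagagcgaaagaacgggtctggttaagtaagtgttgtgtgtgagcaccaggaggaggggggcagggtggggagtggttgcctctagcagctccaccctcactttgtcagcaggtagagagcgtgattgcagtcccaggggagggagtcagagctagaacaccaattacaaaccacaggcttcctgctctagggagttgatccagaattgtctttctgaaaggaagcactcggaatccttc
RNF43 second start: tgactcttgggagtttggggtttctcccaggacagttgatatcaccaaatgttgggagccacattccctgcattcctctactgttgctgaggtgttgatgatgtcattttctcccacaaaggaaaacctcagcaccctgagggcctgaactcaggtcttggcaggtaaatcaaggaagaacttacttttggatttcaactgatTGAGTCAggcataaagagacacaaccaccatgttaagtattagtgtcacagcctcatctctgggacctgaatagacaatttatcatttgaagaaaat

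The DKK1 window holds CTTTGAA 95 bases before the start and TATAAA 30 bases before it. CTTTGAA or CTTTGAT stands in 6.86% of the 35116 promoter windows of the same length, and TATAAA in 11.5%. The second RNF43 start has the AP-1 letters on the opposite strand, TGAGTCA, 47 bases before it, as 4.95% of all windows have them on either strand. Neither the MYB window nor that of the first RNF43 start holds any of these letters. The GC box GGGCGG, found in 45% of windows, stands 166 bases before the DKK1 start and 126 before that of MYB. The windows also differ in base composition: MYB has 71% G and C with 35 CpG pairs, DKK1 63.7% with 20, and the RNF43 starts 54.3% with 5 and 43.7% with 0, where the median of all windows is 58.7% and 14. The SMOC2 window, not shown, has 75% G and C, 28 CpG pairs, GGGCGG at 63 and 14 bases before the start and none of the TCF, AP-1 or TATA letters. A match of letters is a description of the window and not a binding site.

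The other genes of the pathway were counted from lists chosen with earlier results of these data known. In HT29 under VXN, the destruction complex and Dishevelled list moved most in 1 direction, with 11 of 13 tested genes higher and 1 lower. Over all tested genes 33.0% rose and 26.9% fell. The median log2 fold change of the list was 0.39, against 0.055 for all genes. AXIN1, the constitutive relative of AXIN2, was at 156 and 148 CPM under VXN, against 81.4 and 86.4 CPM under DMSO (log2 fold change 0.86 ± 0.041; adjusted p = 1.49e-28). CSNK1A1, the casein kinase that first phosphorylates β-catenin, rose by 0.50 ± 0.033 (adjusted p = 6.10e-22). APC, the gene truncated in this line, was the list's single fall, with 38.3 and 37.9 CPM under VXN and 45.0 and 47.6 CPM under DMSO (log2 fold change -0.28 ± 0.057; adjusted p = 1.69e-05). The counts for this list were also 11 and 1 under both other scalings and in DESeq2.

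Of 15 other stem and crypt genes tested, 8 fell and 3 rose in HT29 under VXN, with a median of -0.55. For this list and the differentiation genes below, 26.9% of all tested genes fell and 33.0% rose. SLC12A2, a chloride co-transporter of the crypt base, was at 91.5 and 93.2 CPM under VXN, against 858 and 864 CPM under DMSO. Its libraries lay 9.32-fold apart (log2 fold change -3.22 ± 0.035; adjusted p = 2.13e-64). CDCA7, a chromatin factor of dividing cells, was at 22.7 and 24.3 CPM under VXN, against 126 and 124 CPM under DMSO (log2 fold change -2.42 ± 0.051; adjusted p = 8.22e-48). The 3 rises were small, with RGMB at 0.18 ± 0.063 and RNF32 at 0.32 ± 0.13, and DESeq2 called none of them. Of 12 intestinal differentiation genes tested, 6 fell and 2 rose, with a median of -0.58. KRT20, a keratin of mature epithelium, was at 700 and 707 CPM under VXN, against 247 and 252 CPM under DMSO (log2 fold change 1.50 ± 0.033; adjusted p = 3.84e-47). HNF4A, an enterocyte transcription factor, fell by 1.25 ± 0.056 on the log2 scale (adjusted p = 1.13e-29), and VIL1, a brush border protein, by 0.94 ± 0.041 (adjusted p = 1.03e-30). The summed colorectal markers were 8116 to 8158 CPM under VXN and 10660 to 10690 CPM under DMSO, with 2 of 9 tested higher and 4 lower. Their part in the changes of the 10 genes was not tested.

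The other Wnt targets moved both ways in HT29, as the feedback inhibitors did: 7 of 15 tested fell and 6 rose. For these targets and the other inhibitors below, 26.9% of all tested genes fell and 33.0% rose. The median was 0.23 here and -0.03 in DESeq2, where 7 fell and 4 rose. CD44, a surface receptor for hyaluronan, was at 190 and 184 CPM under VXN, against 542 and 543 CPM under DMSO (log2 fold change -1.54 ± 0.034; adjusted p = 1.25e-46). ETS2, a transcription factor that the stem and crypt list also holds, fell by 1.39 ± 0.031 on the log2 scale (adjusted p = 1.97e-46). FOSL1, a partner of AP-1, rose to 58.7 and 59.2 CPM under VXN, against 28.4 and 27.2 CPM under DMSO (log2 fold change 1.08 ± 0.058; adjusted p = 8.47e-26). Among 12 other Wnt inhibitors 5 rose and 3 fell. NKD2, the relative of NKD1, was at 8.56 and 9.88 CPM under VXN, against 2.80 and 2.99 CPM under DMSO (log2 fold change 1.66 ± 0.14; adjusted p = 5.49e-17). SOSTDC1, a secreted inhibitor of Wnt and BMP signals, was at 1.05 and 0.76 CPM under VXN, against 6.67 and 6.78 CPM under DMSO (log2 fold change -2.87 ± 0.22; adjusted p = 9.34e-19). The rises of SFRP1 and SFRP2, secreted Wnt-binding proteins abundant in t-hESC, were at traces in HT29, with 0.39 and 0.86 CPM and 0.52 and 0.51 CPM under VXN, against 0.082 and 0.17 CPM and 0.12 and 0.085 CPM under DMSO.

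At the membrane of HT29 cells, 6 of 17 tested receptors and co-receptors fell and 4 rose under VXN, and 5 fell and 2 rose in DESeq2. For this list and the other HT29 lists of this paragraph, 26.9% of all tested genes fell and 33.0% rose. LGR4, the broadly expressed relative of LGR5, was at 89.7 and 89.3 CPM under VXN, against 194 and 191 CPM under DMSO (log2 fold change -1.11 ± 0.038; adjusted p = 3.94e-36). Both R-spondin receptors of this pair therefore fell, LGR4 by far less than LGR5. FZD7 rose to 27.7 and 26.4 CPM under VXN, against 13.0 and 14.5 CPM under DMSO (log2 fold change 0.98 ± 0.073; adjusted p = 3.50e-19). Of 12 ligands 4 rose and 1 fell, led by WNT7B (0.78 ± 0.069; adjusted p = 9.92e-16) and WNT2B (1.56 ± 0.14; adjusted p = 1.64e-15), while WNT11 fell by 0.79 ± 0.15 on the log2 scale. WNT5A rose as well, at traces of 0.22 and 0.30 CPM under VXN and 0.041 and 0 CPM under DMSO. Of 6 genes for ligand secretion and R-spondins 2 rose, PORCN and WLS, and DESeq2 called 1 higher. Of 13 genes for β-catenin and its nuclear partners 3 rose and 5 fell. CTNNB1, which encodes β-catenin, was at 261 and 257 CPM under VXN, against 294 and 289 CPM under DMSO (log2 fold change -0.17 ± 0.031; adjusted p = 2.92e-06). BCL9L, a co-activator of β-catenin, rose by 0.93 ± 0.036 (adjusted p = 4.45e-33).

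**Figure D3:**
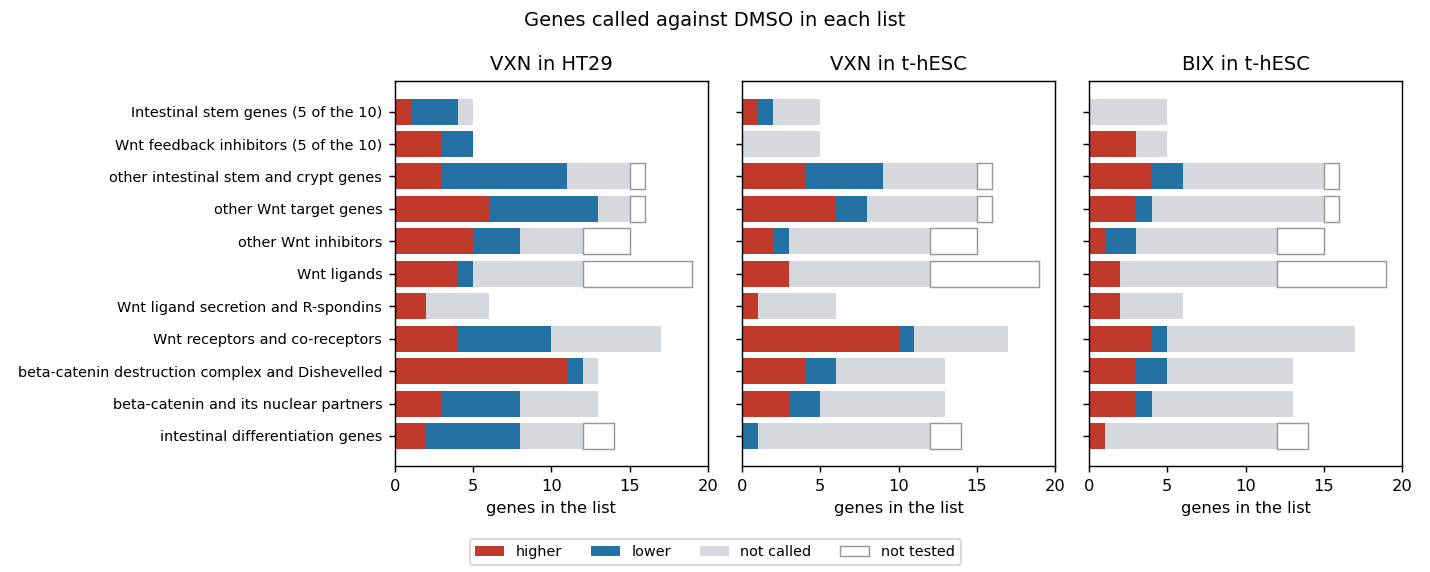
Number of genes (horizontal axis) called higher, called lower, not called and not tested in each list, for VXN in HT29, VXN in t-hESC and BIX in t-hESC, each against DMSO of the same line. The destruction complex list has 11 rises of 13 in HT29 under VXN, where 33.0% of all tested genes rose. The receptor list has 10 rises of 17 in t-hESC under VXN, where 14.5% of all tested genes rose.

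In t-hESC, VXN at the same dose changed few of the 10 genes: SOX9 rose, MYB fell, and the other 8 were not called. The 2 calls, 1 in each direction, compare with 29.0% of all tested genes, 14.5% higher and 14.6% lower. SOX9 was at 37.0 and 36.5 CPM under VXN, against 14.5 and 15.1 CPM under DMSO. The replicates were close and the groups far apart, a 2.48-fold rise (log2 fold change 1.31 ± 0.072; adjusted p = 7.36e-24). MYB was at 1.61 and 2.26 CPM under VXN, against 4.78 and 3.53 CPM under DMSO. It fell 2.11-fold without overlap (log2 fold change -1.08 ± 0.21; adjusted p = 2.23e-05). Both calls were made in every alternative fit.

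**Figure D4:**
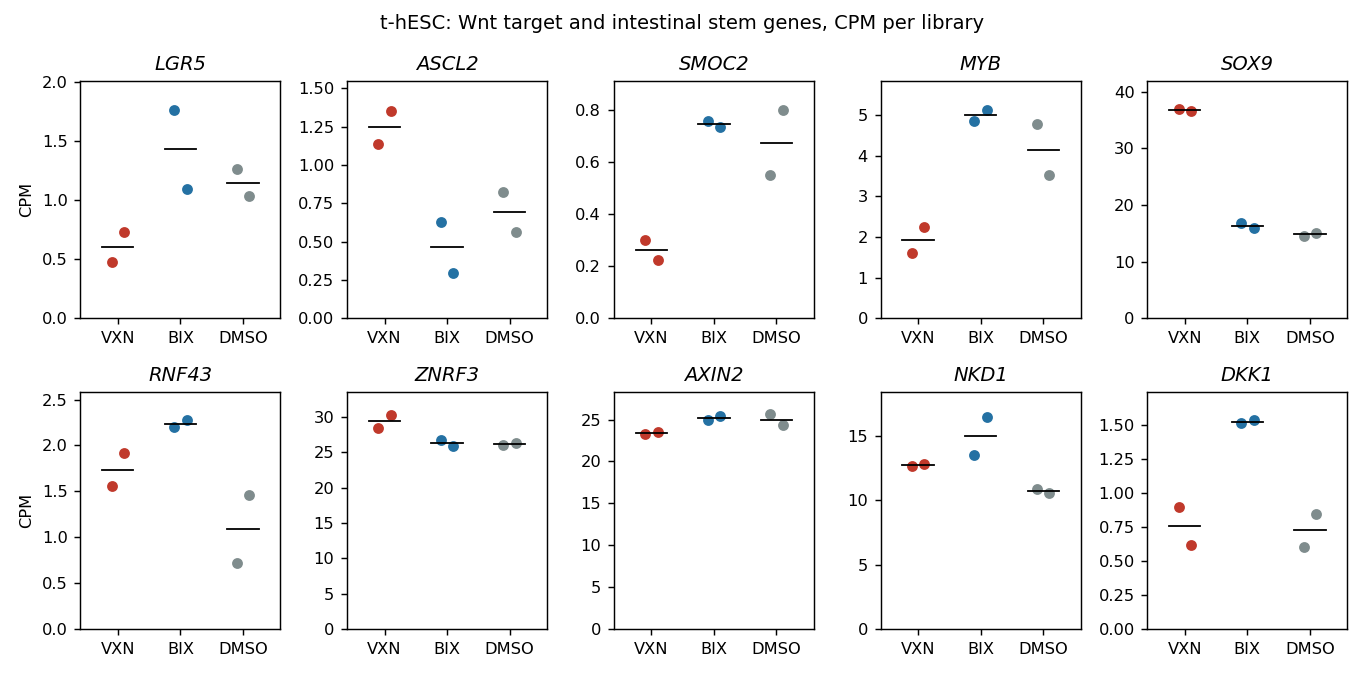
Level of each of the 10 genes in CPM (vertical axis, from 0, own scale per gene) in the 2 VXN, 2 BIX and 2 DMSO libraries of t-hESC; points are libraries and bars the mean of 2. SOX9 stands at 36.5 to 37.0 CPM under VXN and at 14.5 to 16.8 CPM under BIX and DMSO.

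SOX9 is also a gene of neural crest and of mesenchymal cells, so markers of other cell types were read beside it. The 3 neural crest markers summed to 20.7 to 21.0 CPM under VXN and 17.8 to 19.0 CPM under DMSO, and neither of the 2 tested was called. The 5 fibroblast or feeder markers summed to 932.5 to 932.6 CPM under VXN and 661.1 to 661.4 CPM under DMSO. THY1 made up most of that, at 857 and 855 CPM under VXN and 585 and 588 CPM under DMSO, and was the only one called of the 4 tested. The sum therefore follows THY1 and does not by itself show fibroblasts or feeders. The collagen genes were expressed, COL1A1 at 37.1 and 37.9 CPM under VXN and 32.7 and 33.6 CPM under DMSO (adjusted p = 0.0715), and COL1A2 at 38.5 and 39.7 CPM under VXN and 43.2 and 39.3 CPM under DMSO (adjusted p = 0.481). DCN and LUM were at 0 in both VXN libraries and at no more than 1 read in a DMSO library. The 3 neural markers summed to 5.50 to 6.26 CPM under VXN and 8.05 to 8.07 CPM under DMSO, and the 7 mesoderm and endoderm markers to 2.54 to 2.99 CPM and 1.93 to 2.25 CPM, with 2 of the 7 at 0 under VXN and 3 under DMSO. The 7 pluripotency markers summed to 4332 to 4344 CPM under VXN and 4974 to 5041 CPM under DMSO, with 5 lower and 1, NANOG, higher. Of all tested genes 14.5% were called higher and 14.6% lower. The part of these differences in the SOX9 rise was not tested.

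Several of the 8 genes without a call in t-hESC lay close to the threshold, at low counts. LGR5 was at 0.48 and 0.73 CPM under VXN, against 1.26 and 1.04 CPM under DMSO, 21 reads against 45. The libraries did not overlap, and the log2 fold change was -0.90 ± 0.36 (adjusted p = 0.0543). SMOC2 was at 0.30 and 0.23 CPM under VXN, against 0.55 and 0.80 CPM under DMSO (log2 fold change -1.37 ± 0.55; adjusted p = 0.0554). ASCL2 was at 1.13 and 1.35 CPM under VXN, against 0.82 and 0.56 CPM under DMSO (0.86 ± 0.35; adjusted p = 0.0579). The libraries of these 3 stem genes did not overlap, but nor did those of AXIN2, whose adjusted p was 0.374. How many of all tested genes lacked overlap was not counted, so the lack of overlap is not read as a sign of change. At these counts a change of this size was not called. A minimum count of 50 removed SMOC2 from the test and gave LGR5 and ASCL2 adjusted p-values of 0.0452 and 0.0473, and LGR5 also passed with upper-quartile factors (0.0468) and without BIX replicate 2 (0.0483). With each library left out in turn, the largest adjusted p was 0.33 for LGR5, 0.379 for ASCL2 and 0.35 for SMOC2.

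None of the feedback inhibitors was called in t-hESC under VXN. ZNRF3 was at 28.5 and 30.3 CPM under VXN, against 26.0 and 26.3 CPM under DMSO (log2 fold change 0.17 ± 0.068; adjusted p = 0.0549, and 0.0378 with a minimum count of 50, 0.0475 without VXN replicate 1 and 0.0486 without BIX replicate 1, but up to 0.353 without others). RNF43 was at 1.55 and 1.92 CPM under VXN, against 0.71 and 1.46 CPM under DMSO. Its log2 fold change of 0.64 ± 0.28 (adjusted p = 0.0839) became 1.27 without t-hESC DMSO replicate 2 (adjusted p = 0.0121) and 0.25 without t-hESC DMSO replicate 1 (adjusted p = 0.662). NKD1 was at 12.7 and 12.9 CPM under VXN and 10.9 and 10.6 CPM under DMSO (0.25 ± 0.11; adjusted p = 0.077). AXIN2 was at 23.2 and 23.5 CPM under VXN and 25.6 and 24.3 CPM under DMSO (-0.09 ± 0.073; adjusted p = 0.374). DKK1, lost almost wholly in HT29, was near the counting limit in t-hESC, at 0.90 and 0.62 CPM under VXN and 0.60 and 0.85 CPM under DMSO, and its libraries overlapped (0.04 ± 0.38; adjusted p = 0.974).

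Around these genes in t-hESC, 10 of 17 receptors and co-receptors rose under VXN and 1 fell. For this list and the other t-hESC lists under VXN, 14.5% of all tested genes rose and 14.6% fell. The receptors had a median log2 fold change of 0.22, against 0.0036 for all genes. DESeq2 called 5 higher and 1 lower of 15. FZD5 was at 73.8 and 78.0 CPM under VXN, against 52.6 and 51.4 CPM under DMSO (log2 fold change 0.55 ± 0.051; adjusted p = 8.57e-14). The co-receptor LRP6 rose by 0.37 ± 0.056 (adjusted p = 1.51e-07), and RYK, a receptor of the non-canonical branch, fell by 0.22 ± 0.056 (adjusted p = 0.00191). Of 12 ligands 3 rose and none fell. WNT5A, a ligand of the non-canonical branch, was at 8.54 and 10.4 CPM under VXN, against 3.84 and 3.81 CPM under DMSO (1.31 ± 0.15; adjusted p = 1.54e-10). Of 15 other targets 6 rose and 2 fell. JUN, a subunit of AP-1, was at 66.2 and 64.0 CPM under VXN, against 15.5 and 18.2 CPM under DMSO (1.94 ± 0.065; adjusted p = 2.51e-35). EPHB3, an ephrin receptor of the crypt, rose by 0.90 ± 0.091 (adjusted p = 1.62e-12). MYC fell by 0.26 ± 0.078 (adjusted p = 0.00776). The stem and crypt list was mixed, with 4 of 15 higher and 5 lower, among them SOX4 at 0.46 ± 0.034 and CDCA7 at -0.42 ± 0.043. The Wnt inhibitor SFRP2 rose by 0.32 ± 0.028 and SFRP1 fell by 0.31 ± 0.030. DESeq2 called 1 higher and 0 lower of 8 ligands, 5 and 1 of 13 targets, and 4 and 2 of 13 stem and crypt genes.

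The VXN effects in the 2 lines were set against each other by testing the effect in HT29 minus the effect in t-hESC. Of the 10 genes 7 differed, 2 with a higher and 5 with a lower effect in HT29, against 43.2% of all tested genes, 22.9% higher and 20.3% lower. SOX9 was called in both lines in opposite directions, a log2 difference of -1.93 ± 0.081 (adjusted p = 8.52e-31). MYB fell in both lines, and the difference was -3.14 ± 0.27 (adjusted p = 1.24e-15). The difference was -4.09 ± 0.51 (adjusted p = 3.20e-10) for LGR5 and -4.57 ± 0.45 (adjusted p = 1.50e-13) for DKK1, both of them low in t-hESC under DMSO. AXIN2 had the higher effect in HT29 by 0.75 ± 0.086 (adjusted p = 3.10e-11), and for ZNRF3 the difference was -0.28 ± 0.082 (adjusted p = 0.00433). For SMOC2 the difference was 4.73 ± 0.98 (adjusted p = 3.93e-05), and 7.60 without HT29 DMSO replicate 1 or 3.85 without HT29 DMSO replicate 2. RNF43, NKD1 and ASCL2 had differences of -0.25 ± 0.28, 0.36 ± 0.26 and -0.74 ± 0.40 that were not called.

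**Figure D5:**
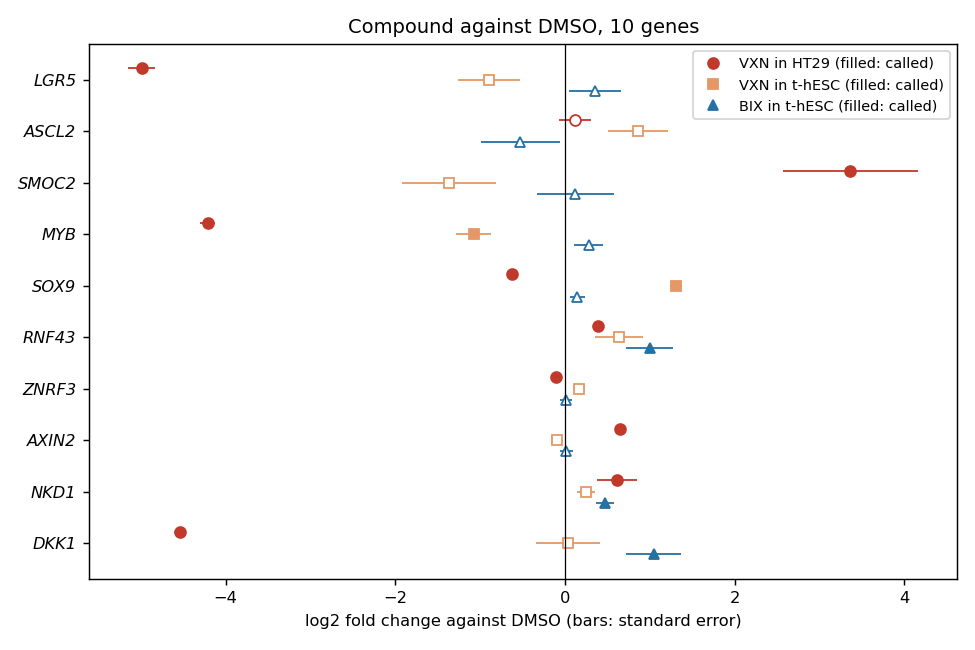
log2 fold change (horizontal axis) of the 10 genes for VXN in HT29 (circles), VXN in t-hESC (squares) and BIX in t-hESC (triangles), each against DMSO of the same line; bars are standard errors and filled symbols are called. SOX9 is at -0.62 in HT29 and 1.31 in t-hESC under VXN, and DKK1 at -4.54 in HT29 under VXN and 1.05 in t-hESC under BIX.

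BIX in t-hESC was followed by rises of 3 feedback inhibitors, RNF43, DKK1 and NKD1, and by no called change of a stem gene. The 3 calls, all higher, compare with 23.1% of all tested genes, 10.9% higher and 12.2% lower. This comparison shares its DMSO libraries with that of VXN in t-hESC. RNF43 was at 2.20 and 2.27 CPM under BIX, against 0.71 and 1.46 CPM under DMSO. The groups did not overlap, and the log2 fold change was 1.00 ± 0.28 (adjusted p = 0.00436), 0.61 without t-hESC DMSO replicate 1 (adjusted p = 0.178) and 1.63 without t-hESC DMSO replicate 2. DKK1 was at 1.51 and 1.54 CPM under BIX, against 0.60 and 0.85 CPM under DMSO, 45 reads against 29. Its libraries were apart (log2 fold change 1.05 ± 0.33; adjusted p = 0.0129), and the call was lost without BIX replicate 1 (adjusted p = 0.0664), BIX replicate 2 (0.06) or t-hESC DMSO replicate 1 (0.131). NKD1 was at 13.5 and 16.5 CPM under BIX, against 10.9 and 10.6 CPM under DMSO. It rose 1.39-fold (log2 fold change 0.47 ± 0.11; adjusted p = 0.000543), with an adjusted p of 0.0731 without BIX replicate 2 and 0.0547 in DESeq2. Only 1 of the 3 was called without BIX replicate 2 and without t-hESC DMSO replicate 1. The fibroblast or feeder markers summed to 784 to 824 CPM under BIX and 661.1 to 661.4 CPM under DMSO, with 3 of 4 tested higher. THY1, which made up most of the DMSO sum, rose by 0.24 ± 0.031 on the log2 scale, and COL1A2 by 0.76 ± 0.064. In each BIX library 2 of the 5 markers had 3 counts or fewer, so the sum does not by itself show fibroblasts or feeders. The part of these markers in the rises of the 3 genes was not tested.

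None of the other 7 genes was called under BIX. LGR5 was at 1.76 and 1.10 CPM under BIX and 1.26 and 1.04 CPM under DMSO (log2 fold change 0.35 ± 0.30; adjusted p = 0.474). ASCL2 was at 0.63 and 0.29 CPM under BIX and 0.82 and 0.56 CPM under DMSO (-0.52 ± 0.46; adjusted p = 0.484). For both genes the libraries overlapped. MYB was at 4.85 and 5.13 CPM under BIX and 4.78 and 3.53 CPM under DMSO (0.28 ± 0.17; adjusted p = 0.264). SOX9 was at 16.8 and 16.0 CPM under BIX and 14.5 and 15.1 CPM under DMSO (0.15 ± 0.090; adjusted p = 0.27). SMOC2, ZNRF3 and AXIN2 had log2 fold changes of 0.12 ± 0.45, 0.01 ± 0.072 and 0.02 ± 0.074, with overlapping libraries.

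Among the other pathway genes under BIX, 2 of 12 ligands rose and none fell. For this list and the others under BIX, 10.9% of all tested genes rose and 12.2% fell. WNT8A, a ligand of the early embryo, was at 2.65 and 3.30 CPM under BIX, against 1.15 and 0.75 CPM under DMSO (log2 fold change 1.65 ± 0.29; adjusted p = 8.08e-06). WNT5A rose by 0.78 ± 0.17 (adjusted p = 0.000223). RSPO3, an R-spondin and so a ligand of the LGR receptors, was at 2.77 and 3.89 CPM under BIX, against 1.21 and 1.69 CPM under DMSO (1.16 ± 0.25; adjusted p = 0.000284). LGR4 rose by 0.30 ± 0.048 (adjusted p = 1.24e-06) and LRP6 by 0.37 ± 0.057 (adjusted p = 5.25e-07), among 4 rises and 1 fall of 17 receptors. CTNNB1 fell by 0.26 ± 0.028 (adjusted p = 3.06e-11). Of 15 other targets 3 rose and 1 fell, with SP5, a direct Wnt target, at 1.45 and 1.39 CPM under BIX, against 0.60 and 0.89 CPM under DMSO (0.90 ± 0.34; adjusted p = 0.0467). Of 15 stem and crypt genes 4 rose and 2 fell, led by CDK6 at 0.71 ± 0.074 (adjusted p = 7.20e-12). Of 13 genes of the destruction complex list 3 rose and 2 fell, with GSK3B, the kinase that marks β-catenin, higher by 0.34 ± 0.050 (adjusted p = 1.03e-07). DESeq2 gave fewer calls in several of these lists: 1 higher and 0 lower of 12 targets, 4 and 1 of 12 stem and crypt genes, 4 and 0 of 14 receptors, 1 and 0 of 3 secretion and R-spondin genes, and 2 and 0 of 13 destruction complex genes. Of the ligands 1 had an adjusted p in DESeq2, and it was not called. With DESeq2-type size factors in edgeR, 5 of 15 targets rose and 1 fell, and with upper-quartile factors 2 rose and 1 fell.

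VXN at 10 µM and BIX at 1 µM were also compared directly in t-hESC, where compound and dose cannot be told apart. Of the 10 genes 5 were called, 2 higher and 3 lower with VXN, against 22.7% of all tested genes, 11.6% higher and 11.2% lower. SOX9 was higher with VXN by 1.16 ± 0.076 on the log2 scale (adjusted p = 3.53e-20), from 37.0 and 36.5 CPM with VXN against 16.8 and 16.0 CPM with BIX. MYB was lower with VXN, at 1.61 and 2.26 CPM, against 4.85 and 5.13 CPM with BIX (-1.36 ± 0.21; adjusted p = 4.84e-07). These 2 calls were made whichever library was left out. LGR5 was lower with VXN (-1.25 ± 0.36; adjusted p = 0.00753), DKK1 lower (-1.01 ± 0.34; adjusted p = 0.0213) and ASCL2 higher (1.38 ± 0.41; adjusted p = 0.00956). The LGR5 call was lost without BIX replicate 1 (adjusted p = 0.263) or VXN replicate 1 (0.115). That of ASCL2 was lost without BIX replicate 2 (0.164) or VXN replicate 2 (0.0753), and that of DKK1 without either BIX library (0.0872 and 0.079) or VXN replicate 2 (0.207). Without VXN replicate 2, and without BIX replicate 2, 3 of the 10 genes were called. SMOC2 was at 0.30 and 0.23 CPM with VXN, against 0.76 and 0.73 CPM with BIX (-1.49 ± 0.58; adjusted p = 0.052, and 0.0479 with upper-quartile factors). RNF43, ZNRF3, AXIN2 and NKD1 had log2 differences of -0.36 ± 0.26, 0.16 ± 0.072, -0.11 ± 0.077 and -0.22 ± 0.11, and none was called. NKD1 had an adjusted p of 0.0388 without BIX replicate 1.

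Calls among the 10 genes in the authors' deposited tables were fewer for VXN in HT29 and for BIX, and the same 2 for VXN in t-hESC. For VXN in HT29, the authors' deposited table has LGR5, MYB, SOX9 and DKK1 lower and SMOC2, RNF43 and AXIN2 higher. Its adjusted p was 0.0254 for SMOC2, and 0.0985 for ZNRF3 and 0.185 for NKD1, which were not called. For VXN in t-hESC, the authors' deposited table has SOX9 higher and MYB lower. For BIX, the authors' deposited table has RNF43 alone higher (adjusted p = 0.0265), with 0.369 for DKK1 and 0.282 for NKD1. ASCL2 and SMOC2 have no adjusted p in either t-hESC table of the authors.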

How the data were processed

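RNA of 10 libraries was prepared with a TruSeq RNA v2 kit, per the labels' protocols; that kit does not mark strand, so reads of overlapping and antisense genes cannot be told apart. The submitters' processing notes list STAR, FastQC 0.11.9, DESeq2 1.34.0 and fastp 0.20.1, and as builds hg38 and GRCh38. For the program that counted the reads and its annotation, nothing is given in the sources used here. The authors deposited whole-number counts for 60651 genes and 1181 repeat families, and tables of comparisons with log2 fold changes and adjusted p-values, which are quoted only as the authors' calls; 4 columns of the count table match no sample and were not used.

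Groups follow the sample titles. Counts of genes, without repeat families, were fitted in edgeR 4.0.16 (R 4.3.3) over all 10 libraries: TMM scaling, filterByExpr with a minimum count of 10, the robust quasi-likelihood F test on contrasts of group means (5 residual and 56.7 prior degrees of freedom) and Benjamini-Hochberg adjustment. Standard errors are the size of the log2 fold change divided by the square root of F. CPM were computed here from TMM-scaled library sizes. The fit was tested on simulated data.

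The 10 genes, the lists of 155 further genes and the tests were chosen with earlier results of these data known. Besides the 10, the text draws on up to 2 called genes per direction with the smallest p in each list and comparison, and on line markers; not every gene that meets the rule is printed. No list was tested as a set. Alternatives were DESeq2-type and upper-quartile size factors, DESeq2 1.42.0, no filter, a minimum count of 50, each library left out, a block for the replicate number, and fits of the compared groups alone; where that leaves a group with 1 library, the lone library is assumed to vary like the others. Replicates of each group differed somewhat more than sampling noise gives (chi-square per degree of freedom 1.18 to 1.78), and their levels correlated at 0.997 to 0.999. Intervals and floors cover counting error only.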

Additional observations from a re-analysis of the deposited data

Results flagged for a closer look

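For 7 of the 10 genes the VXN effect differed between HT29 and t-hESC by the test of the difference itself (edgeR, adjusted p under 0.05), given as the log2 effect in HT29 minus that in t-hESC. The difference was -4.09 for LGR5 (effects of -4.99 in HT29 and -0.90 in t-hESC), -4.57 for DKK1 (-4.54 and 0.04) and -3.14 for MYB (-4.21 and -1.08). It was -1.93 for SOX9, which fell in HT29 (-0.62) and rose in t-hESC (1.31). It was 0.75 for AXIN2 (0.65 and -0.09) and -0.28 for ZNRF3 (-0.11 and 0.17). It was 4.73 for SMOC2 (3.37 and -1.37), which rests on 21 and 2 reads in the HT29 VXN and DMSO groups. Line and culture conditions cannot be told apart here.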

How the results depend on the processing

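The number of called genes was lower in DESeq2 than in edgeR in all 6 comparisons. In t-hESC it was 3570 against 6531 for VXN, 2825 against 5199 for BIX and 2579 against 5110 for VXN against BIX. For VXN in HT29 it was 10208 against 13490, with 7 against 9 of the 10 genes called. Between the lines it was 17732 against 18996, and for the difference of effects 6981 against 9723. A minimum count of 50 gave 5 called of the 10 genes for VXN in t-hESC, against 2. With each library left out in turn, called genes numbered 12199 to 13786 for VXN in HT29, 4856 to 6731 for VXN in t-hESC, 3871 to 5403 for BIX, 3652 to 4958 for VXN against BIX, 18302 to 19604 between the lines and 8721 to 9893 for the difference of effects. Of the 10 genes 7 to 9, 2 to 3, 1 to 3, 3 to 5, 10 and 7 were then called, in the same order. Called values that changed sign: none in any alternative run. Among values without a call, leaving out a library turned the sign of ASCL2 in HT29 under VXN (-0.0186 to 0.277), of DKK1 in t-hESC under VXN (-0.24 to 0.31), of LGR5, SMOC2, AXIN2 and ZNRF3 under BIX (-0.0527 to 0.623, -0.106 to 0.426, -0.0351 to 0.0471 and -0.0181 to 0.0312) and of the RNF43 difference between lines (-0.89 to 0.13). ZNRF3 under BIX was -0.0038 with no count filter. Over the 10 genes, all 6 comparisons and all alternatives, 962 values kept their direction and side of the threshold, 22 lost a call, 12 gained one and 11 changed sign. SMOC2 could not be tested in HT29 with a minimum count of 50 or in the fit of those groups alone. The causes of these changes were not tested. With the replicate number as a block (replicate block) called genes numbered 13426, 6442, 5101, 5002, 18948 and 9659, in the order VXN in HT29, VXN in t-hESC, BIX, VXN against BIX, lines and difference, and the called number among the 10 was 9, 2, 3, 5, 10 and 7, as without it. Deviations of same-numbered libraries from their group means correlated at -0.0836 to -0.00521 over 14305 genes. Replicates differed only somewhat more than sampling noise gives (chi-square per degree of freedom 1.18 to 1.78), so this cannot exclude that the numbers pair the samples. Counts limit LGR5, ASCL2, SMOC2, DKK1 and RNF43 in t-hESC, where single groups hold 9 to 66 reads.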
